A study of Mus musculus with 8 samples.

Results

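The complement components that macrophages make were followed here in bone-marrow-derived mouse macrophages with and without the kinase Tpl2. Members were chosen by name, as the 7 genes C3, Cfb, C2, C1qa, C1qb, C1qc and Cfp, and each was read from probe sets whose annotation lists its symbol alone. Of the 7 genes 6 were measured, by 11 of 34945 such probe sets, which represent 18193 genes in all. No probe set was paired with C3, and C3 was not analysed here. Where a gene had several probe sets, the brightest on average stood for it and the others served as a check.

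The 8 Affymetrix arrays form 4 groups of 2: Tpl2-deficient macrophages with LPS, wild-type macrophages with LPS, unstimulated Tpl2-deficient macrophages and unstimulated wild-type macrophages. Marrow cells of every group were grown in macrophage colony-stimulating factor at 10 ng/mL for 7 to 10 days and the adherent cells were kept. LPS, a bacterial ligand of toll-like receptor 4 (here from Escherichia coli), was used at 1 μg/mL, for a time not given in the labels. The labels name the genotype as Tpl2 deficient or Tpl2 wild type, with no allele, strain, sex or age, and call the arrays biological replicates without tying them to separate mice. The p-values below therefore measure only the spread between these samples, which may be technical.

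Complement is a set of plasma proteins that tag microbes and dying cells for uptake. In the classical pathway C1q, built from the chains encoded by C1qa, C1qb and C1qc, recognises antibody or other patterns, and C2 then provides the protease of the enzyme that cleaves C3. In the alternative pathway factor B, encoded by Cfb, provides that protease, and properdin, encoded by Cfp, stabilises the enzyme on the target surface. The liver makes most circulating complement, but macrophages are a main source of C1q and also release factor B, C2 and properdin.

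The promoters of C1qb and C1qc, next to each other on chromosome 4 (C1qa follows), and of Cfp on chromosome X are shown because these genes read lower with LPS than without it in both genotypes. C1qa also read lower with LPS in both genotypes, but the promoter set used here holds no entry for it. The sequences are RefSeq's for build GRCm38.p6, 250 bases before to 50 after the start, read 5′ to 3′ on the gene's strand. They lie at chr4:136886151-136886450 for C1qb, chr4:136892865-136893164 for C1qc and chrX:20931506-20931805 for Cfp, all on the minus strand. Capitals mark matches, on either strand, to the kB motif, a site type of NF-kB (overlapping matches merged), or to a PU.1 motif (AGGAAGT).
C1qb: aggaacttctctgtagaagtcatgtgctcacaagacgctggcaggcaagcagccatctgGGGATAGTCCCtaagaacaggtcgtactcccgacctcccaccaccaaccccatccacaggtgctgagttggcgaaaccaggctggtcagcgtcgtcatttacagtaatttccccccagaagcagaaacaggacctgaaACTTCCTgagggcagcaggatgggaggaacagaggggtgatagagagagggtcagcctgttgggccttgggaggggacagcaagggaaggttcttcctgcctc
C1qc: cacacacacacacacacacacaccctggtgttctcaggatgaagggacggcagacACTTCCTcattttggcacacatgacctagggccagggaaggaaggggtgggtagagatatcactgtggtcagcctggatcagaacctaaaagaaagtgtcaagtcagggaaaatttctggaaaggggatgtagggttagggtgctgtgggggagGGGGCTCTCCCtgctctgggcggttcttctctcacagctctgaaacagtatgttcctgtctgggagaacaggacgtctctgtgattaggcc
Cfp: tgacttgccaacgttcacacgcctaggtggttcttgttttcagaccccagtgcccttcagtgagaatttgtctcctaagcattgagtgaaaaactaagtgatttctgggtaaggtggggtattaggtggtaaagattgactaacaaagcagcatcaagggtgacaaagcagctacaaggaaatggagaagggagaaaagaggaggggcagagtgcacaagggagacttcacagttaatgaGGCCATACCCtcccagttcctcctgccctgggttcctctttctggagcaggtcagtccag
Each of the C1q promoters holds 1 PU.1 match, whose first base lies at -53 in C1qb and at -195 in C1qc, and the Cfp promoter holds 0. A PU.1 match is present in 9.35% and a kB match in 50.8% of all 32851 promoter windows of the table. The GAS (TTCNNNGAA), ISRE, AP-1 (TGANTCA) and C/EBP (TTGCNNAA) motifs, present in 8.3%, 3.44%, 7.81% and 10.8% of windows, have 0 matches in these 3 windows. A match describes letters in the window and is not a shown binding site.

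Values are log2 RMA intensities, whose precision depends on how many arrays were run rather than on a depth. The files hold no detection calls. A fold is written as at least where 1 of its group means is below the array median (6.48 to 6.53), and none is given where both are. Each difference is on the log2 scale with its standard error, from limma fitted to 18193 genes on all 8 arrays, and passing means a p under 0.05 after Benjamini-Hochberg adjustment. The 2 LPS-treated Tpl2-deficient arrays differed more than other pairs (median SD 0.129, against 0.0649 to 0.0662), so standard errors and p-values that involve them may be too small. Map3k8, which encodes Tpl2, read 9.83 and 10.09 in LPS-treated Tpl2-deficient arrays, against 11.01 and 10.91 in LPS-treated wild-type arrays, and 8.32 and 8.23 in unstimulated Tpl2-deficient arrays, against 9.27 and 9.28 in unstimulated wild-type arrays. Macrophage markers were present throughout, with all 12 of the list above the array median in every group. Of 10 measured neutrophil and granulocyte precursor markers 3 were above it in every group (Elane and Mpo were not). These were Camp (group means 6.58 to 7.58), S100a8 (8.46 to 10.17) and Csf3r (10.51 to 11.04). Of 10 stromal markers 4 to 6 were above it, of 8 dendritic cell markers 3 or 4, of 5 B cell markers 1, and of 6 T and NK cell markers 3 or 4.

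With LPS, Cfb rose strongly in both genotypes, C1qa, C1qc and Cfp fell slightly in wild-type cells, and Cfp also fell in Tpl2-deficient cells. In Tpl2-deficient macrophages 1 of the 6 measured members rose and 1 fell (33.3%), against 41.8% of all genes (16% higher and 25.8% lower). In wild-type macrophages 1 rose and 3 fell (66.7%), against 52.2% of all genes (21.3% higher and 30.9% lower). With so many genes past the test, these counts are no result about the members, and each gene's size of change is given instead. The arrays with and without LPS did not overlap for 5 of 6 members in Tpl2-deficient cells, against 66.7% of all genes, and for 6 of 6 in wild-type cells, against 80.3%. The members had a median change of -0.12 in Tpl2-deficient cells and of -0.22 in wild-type cells, beside 0.0018 and 0.044 over all genes.

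These values are relative to the arrays' common scale. Centring on hybridisation spike-ins shifted every gene by -0.238 in the LPS comparison of Tpl2-deficient cells, by -0.149 in that of wild-type cells and by 0.12 between the unstimulated genotypes. Lower calls then made up 79.6% of all calls with LPS in Tpl2-deficient cells (61.8% without the centring), 76.2% in wild-type cells (59.2%) and 39.6% between the unstimulated genotypes (69.2%). Among the members it brought the calls with LPS in Tpl2-deficient cells to 1 higher and 3 lower, adding C1qa (-0.39) and C1qc (-0.49). The spike-in means of the 2 unstimulated wild-type arrays differed, at 11.31 and 11.52. The higher lies between those of the LPS-treated wild-type arrays (11.62 and 11.51). The lower is near those of the unstimulated Tpl2-deficient arrays (11.28 and 11.31). The shifts that involve unstimulated wild-type cells therefore depend on which of these arrays is taken.

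**Figure D1:**
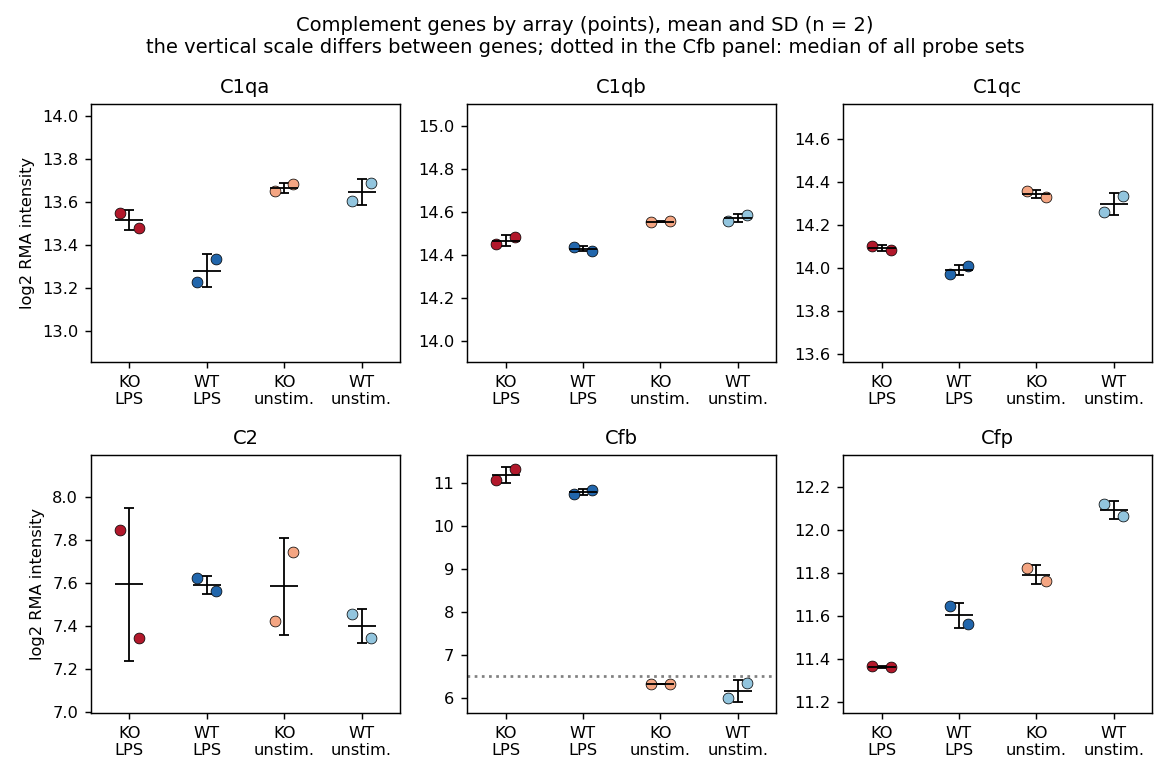
Log2 RMA intensity of the 6 measured complement genes on each array (points), with the group mean and SD (bars, n = 2), for Tpl2-deficient (KO) and wild-type (WT) macrophages with LPS and unstimulated. Cfb lies between 10.73 and 11.32 on the LPS arrays and under the dotted array median without LPS, whereas C1qa spans 0.461, C1qc 0.382 and C1qb 0.164 log2 units over the 8 arrays.

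The C1q chains, which form the recognition protein of the classical pathway, were read at high signal in every group. C1qa measured 13.55 and 13.48 with LPS, against 13.65 and 13.68 unstimulated, in Tpl2-deficient cells. In wild-type cells it measured 13.23 and 13.34 with LPS, against 13.60 and 13.69 unstimulated. The LPS arrays lie under the unstimulated arrays in each genotype, and the unstimulated genotypes overlap. C1qa fell 1.29-fold with LPS in wild-type cells (-0.37 ± 0.10, adjusted p = 0.00916, limma). In Tpl2-deficient cells its change was -0.15 ± 0.10 and did not pass (adjusted p = 0.259).

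C1qc measured 14.10 and 14.08 with LPS, against 14.35 and 14.33 unstimulated, in Tpl2-deficient cells. In wild-type cells it measured 13.97 and 14.01 with LPS, against 14.26 and 14.33 unstimulated. It therefore has the same order as C1qa, with LPS arrays lowest in both genotypes. C1qc fell 1.24-fold in wild-type cells (-0.31 ± 0.10, adjusted p = 0.0188). In Tpl2-deficient cells the change of -0.25 ± 0.10 missed the threshold (adjusted p = 0.0547).

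C1qb measured 14.45 and 14.48 with LPS, against 14.55 and 14.56 unstimulated, in Tpl2-deficient cells, and 14.44 and 14.42 with LPS, against 14.56 and 14.58 unstimulated, in wild-type cells. Its LPS arrays are also lowest in each genotype, but its changes of -0.09 ± 0.09 in Tpl2-deficient and -0.14 ± 0.09 in wild-type cells did not pass (adjusted p = 0.503 and 0.223). The other 2 C1qb probe sets, of the _x_at type that may cross-hybridise, gave -0.14 and -0.11 in Tpl2-deficient and -0.09 and -0.05 in wild-type cells, and none passed. C1qb values lie near the top of the measured range, whose highest value on any array is 15.3299, and whether the signal is compressed there was not tested.

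The C1qc call in wild-type cells was lost when any of the 4 wild-type arrays was left out (adjusted p up to 0.119), with changes of -0.34 to -0.27. The C1qa call was lost without unstimulated wild-type replicate 2 (-0.32, adjusted p = 0.0751) or LPS-treated wild-type replicate 1 (-0.31, adjusted p = 0.0782). The sizes of these changes stayed near those on all arrays. Other values moved with LPS in the same arrays. Of 12 macrophage markers, 4 rose and 5 fell in Tpl2-deficient cells, and 4 rose and 3 fell in wild-type cells. Cd68, a lysosomal glycoprotein, fell by 0.51 and by 0.45, whereas Fcgr1 rose by 1.51 and 1.86 and Cd14 by 0.58 and 0.74. Actb, whose 3' over 5' probe signal tracks RNA degradation, had a ratio of 0.61 and 0.68 (log2) with LPS, against 0.87 and 0.90 unstimulated, in Tpl2-deficient cells, and 0.46 and 0.55 with LPS, against 0.81 and 0.67 unstimulated, in wild-type cells. The same ratio for Gapdh was 0.052 and 0.10 with LPS, against 0.071 and 0.063 unstimulated, in Tpl2-deficient cells, where the groups overlap. The Gapdh ratio of wild-type cells was -0.087 and -0.075 with LPS, against 0.093 and -0.029 unstimulated. The part of these values in the C1q decreases was not tested. In such bulk samples, fewer cells of a type and less RNA per cell cannot be told apart.

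None of the C1q chains passed the test between the genotypes. In LPS-treated cells C1qa was 0.23 ± 0.10 higher in Tpl2-deficient than in wild-type macrophages (95% interval 0.014 to 0.45, adjusted p = 0.172), C1qc 0.10 ± 0.10 higher (-0.11 to 0.31), and C1qb 0.038 ± 0.09 higher (-0.17 to 0.24). The C1qa difference passed with a mean-variance trend in the fit (adjusted p = 0.0359). The arrays of the genotypes did not overlap for any of these 3 genes, as for 46.6% of all genes. At rest the differences were 0.019 for C1qa (-0.20 to 0.24), 0.047 for C1qc (-0.16 to 0.26) and -0.017 for C1qb (-0.22 to 0.19). The LPS responses of the genotypes differed by 0.21 ± 0.14 for C1qa, 0.055 ± 0.13 for C1qb and 0.055 ± 0.13 for C1qc, and none passed.

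**Figure D2:**
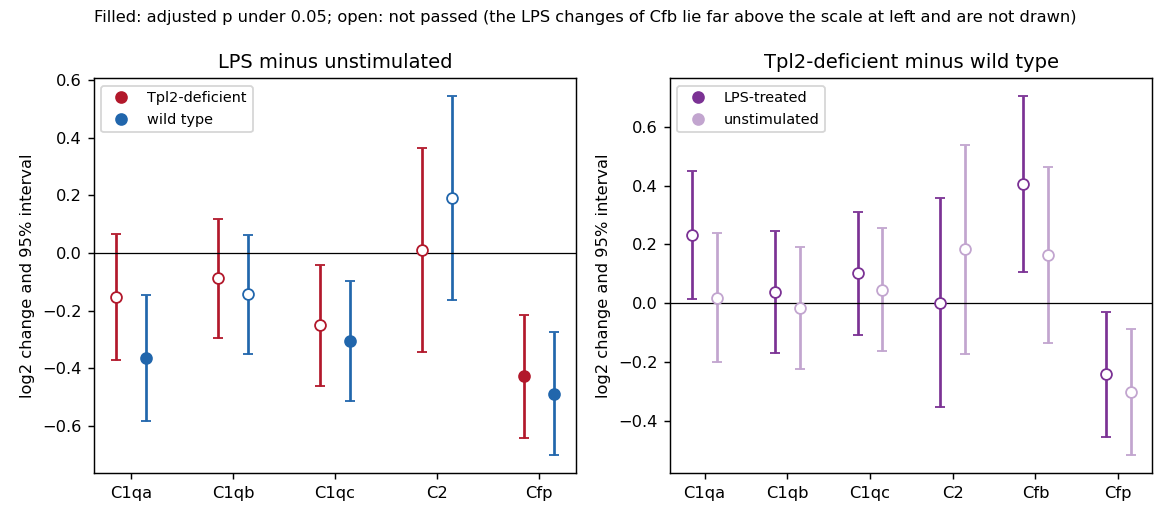
Log2 change and 95% interval of each gene, LPS minus unstimulated in Tpl2-deficient and wild-type cells (left) and Tpl2-deficient minus wild type with LPS and unstimulated (right), with filled points past an adjusted p of 0.05 (limma). At left Cfp is filled in both genotypes and C1qa and C1qc in wild type only, and at right no point is filled; Cfb, which rose by more than 4 log2 units, is left out at left.

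C2, the protease precursor of the classical pathway, is measured by 3 probe sets that differ in whether its LPS change in wild-type cells passed. The brightest, of the _x_at type, read 7.85 and 7.34 with LPS, against 7.42 and 7.74 unstimulated, in Tpl2-deficient cells, and 7.62 and 7.56 with LPS, against 7.46 and 7.34 unstimulated, in wild-type cells. The Tpl2-deficient arrays with and without LPS overlap widely. The LPS change came to 0.010 ± 0.16 in Tpl2-deficient cells and to 0.19 ± 0.16 in wild-type cells, with 95% intervals of -0.34 to 0.36 and -0.16 to 0.54. The other _x_at probe set gave 6.36 and 6.61 with LPS, against 6.25 and 6.24 unstimulated, in Tpl2-deficient cells, and 6.81 and 6.72 with LPS, against 6.06 and 6.22 unstimulated, in wild-type cells. It rose at least 1.54-fold with LPS in wild-type cells (0.63 ± 0.12, adjusted p = 0.000971) and its change in Tpl2-deficient cells did not pass (0.24 ± 0.12, adjusted p = 0.145). Whether these changes differ was tested and did not pass (-0.39 ± 0.17, adjusted p = 0.223). The third, the only C2 probe set not of the _x_at type, gave 0.28 ± 0.15 in Tpl2-deficient cells (adjusted p = 0.161) and rose by 0.40 ± 0.15 in wild-type cells (adjusted p = 0.0397). Values of check probe sets here and below come from the same limma fit over all 34945 probe sets. The genotypes did not differ past the test on any C2 probe set.

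Cfb, which encodes factor B and neighbours C2 on chromosome 17, had the largest change of the members. It measured 11.05 and 11.32 with LPS, against 6.33 and 6.33 unstimulated, in Tpl2-deficient cells. In wild-type cells it measured 10.73 and 10.83 with LPS, against 5.99 and 6.35 unstimulated. The LPS and unstimulated arrays are far apart in each genotype, and the unstimulated levels lie under the array median. Cfb rose at least 28.9-fold in Tpl2-deficient cells (4.85 ± 0.14, adjusted p = 2.96e-10) and at least 24.5-fold in wild-type cells (4.61 ± 0.14, adjusted p = 3.9e-10). The rises differed by 0.24 ± 0.19 (95% interval -0.18 to 0.66, adjusted p = 0.508).

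Among LPS-treated cells Cfb was 1.32-fold higher without Tpl2 (0.40 ± 0.14, 95% interval 0.11 to 0.70), and the arrays of the genotypes did not overlap. This difference did not pass over all genes (adjusted p = 0.0778), where 13.7% of genes did. It passed, at adjusted p between 0.0437 and 0.0473, among genes above the median level, with the replicate number as a block, and without LPS-treated Tpl2-deficient replicate 1. Over all alternatives it ranged from 0.27 to 0.54, with adjusted p up to 0.317. At rest the genotypes differed by 0.16 ± 0.14, both under the array median. By the root mean square difference of mean-centred values over the 8 arrays, the patterns most like that of Cfb among 8853 named genes were those of Cst7 (0.122), which encodes cystatin F, and Il15ra (0.193), the receptor alpha chain of interleukin 15. Cst7 rose by 5.02 and Il15ra by 4.75 in Tpl2-deficient cells, and by 4.50 and 4.59 in wild-type cells. No other member spanned the 1 log2 unit set for this search.

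Cfp, which encodes properdin, was lower with LPS in both genotypes. It measured 11.37 and 11.36 with LPS, against 11.82 and 11.76 unstimulated, in Tpl2-deficient cells. In wild-type cells it measured 11.65 and 11.56 with LPS, against 12.12 and 12.06 unstimulated. The 4 groups do not overlap, in the order LPS-treated Tpl2-deficient, LPS-treated wild-type, unstimulated Tpl2-deficient and unstimulated wild-type from low to high. Cfp fell 1.35-fold in Tpl2-deficient (-0.43 ± 0.10, adjusted p = 0.00363) and 1.40-fold in wild-type cells (-0.49 ± 0.10, adjusted p = 0.00128). These calls held in each alternative run, with adjusted p up to 0.0402, and the fall in Tpl2-deficient cells was larger with spike-in centring (-0.67) and on the mean of both probe sets (-1.14). Against wild type, Tpl2-deficient cells were lower by 0.24 ± 0.10 with LPS (adjusted p = 0.145) and by 0.30 ± 0.10 at rest (adjusted p = 0.23), neither past the test.

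The second Cfp probe set gave a larger LPS decrease that differed between the genotypes. It measured 6.62 and 6.93 with LPS, against 8.66 and 8.60 unstimulated, in Tpl2-deficient cells. In wild-type cells it measured 7.70 and 7.79 with LPS, against 8.62 and 8.49 unstimulated. The unstimulated genotypes overlap, and the LPS-treated Tpl2-deficient arrays lie lowest. It fell 3.61-fold in Tpl2-deficient (-1.85 ± 0.12, adjusted p = 2.06e-07) and 1.76-fold in wild-type cells (-0.81 ± 0.12, adjusted p = 0.000176). With LPS it was 1.95-fold lower in Tpl2-deficient than in wild-type cells (-0.97 ± 0.12, adjusted p = 0.00029), and the LPS responses differed by -1.04 ± 0.17 (adjusted p = 0.00443). On the probe set used, that difference was 0.060 ± 0.14, of opposite sign, so a genotype difference in the Cfp response holds for 1 of its 2 probe sets. The annotation does not say which part of the transcript each probe set reads. Neutrophils, which store properdin, were read by 10 markers, of which 2 rose and 0 fell with LPS in Tpl2-deficient cells. In wild-type cells 7 rose and 0 fell. Only 3 of the 10 were above the array median in each group, and the wild-type rises of Ltf and Cxcr2 had both levels under it. The list's mean level per array was 6.95 to 7.04 with LPS, against 6.71 to 6.79 unstimulated, in Tpl2-deficient cells. In wild-type cells it was 7.15 to 7.17, against 6.66 to 6.70. The part of neutrophils in the Cfp values was not tested.

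**Figure D3:**
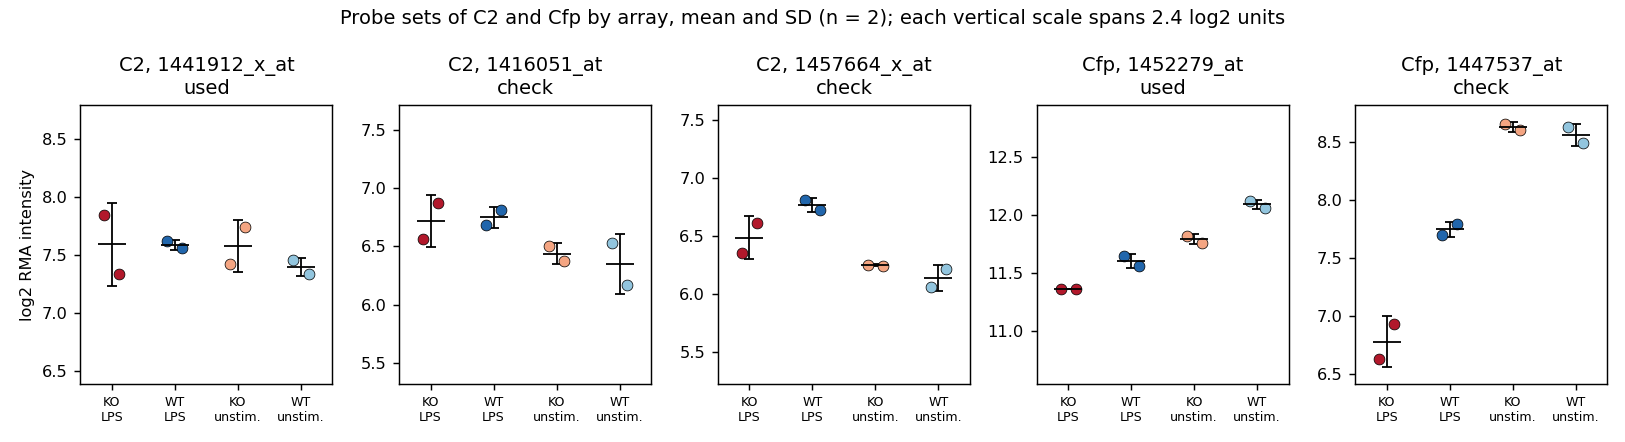
Log2 RMA intensity by array (points), with mean and SD (n = 2), of the 3 probe sets of C2 and the 2 of Cfp, named by their IDs. The Cfp probe set at far right falls to between 6.62 and 6.93 in LPS-treated Tpl2-deficient cells, against 7.70 to 7.79 in LPS-treated wild-type cells, whereas the Cfp probe set beside it differs by -0.24 between the same groups.

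No member passed the test between the genotypes. With LPS 0 of 6 passed, against 13.7% of all genes, and at rest 0 of 6, against 0.5%; the LPS responses also differed for 0 of 6, against 8.59% of all genes. At an unadjusted p under 0.05 (limma) the counts were 3 of 6 with LPS, against 24.3% of all genes, 1 at rest, against 13.4%, and 0 for the difference of responses, against 22.9%. The arrays of the genotypes did not overlap for 5 of 6 members with LPS, against 46.6% of all genes, and for 2 of 6 at rest, against 53.1%. The members' median difference was 0.07 with LPS and 0.03 at rest.

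The wider complement system was read by 41 measured genes of a list of 51. With LPS 6 rose and 9 fell in Tpl2-deficient cells, where 41.8% of all genes passed, and 13 rose and 10 fell in wild-type cells, where 52.2% did, so neither count stands apart from the background. Their medians were -0.0041 and 0.099. Several rises had both levels under the array median, such as Cd55 in both genotypes, Cpn2 in Tpl2-deficient and C4bp in wild-type cells. C1ra, the C1q-bound protease that starts the classical cascade, measured 9.52 and 9.498 with LPS, against 7.16 and 7.09 unstimulated, in Tpl2-deficient cells. In wild-type cells it measured 9.44 and 9.46 with LPS, against 7.51 and 7.50 unstimulated. It rose 5.22-fold in Tpl2-deficient (2.38 ± 0.09) and 3.84-fold in wild-type cells (1.94 ± 0.09), with adjusted p of 3.9e-09 and 1.9e-08. These rises differed by 0.44 ± 0.13, which did not pass (adjusted p = 0.0687). Between the genotypes, Tpl2-deficient minus wild type, C1ra differed by -0.38 ± 0.09 unstimulated (adjusted p = 0.135) and by 0.059 ± 0.09 with LPS (adjusted p = 0.791). Its partner protease gene C1s1 stayed under the array median in every group.

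Among 7 measured soluble regulators, Serping1, the inhibitor of the C1 proteases, rose at least 1.88-fold in Tpl2-deficient cells (0.91 ± 0.10, adjusted p = 2.11e-05). In wild-type cells its change was 0.27 ± 0.10 with both levels under the array median; its adjusted p of 0.0454 was lost in 11 of 17 alternatives. With LPS it was at least 1.39-fold higher in Tpl2-deficient than in wild-type cells (0.48 ± 0.10, adjusted p = 0.00995), which was lost without LPS-treated wild-type replicate 2 (0.43, adjusted p = 0.0974). Among 7 membrane regulators, Cr1l, the rodent inhibitor of C3 cleavage on cell surfaces, rose 1.57-fold in Tpl2-deficient (0.65 ± 0.10) and 1.25-fold in wild-type cells (0.32 ± 0.10) on the probe set used, whereas the mean of its probe sets gave 0.26 and -0.22, neither past the test. Cd59a, which blocks the membrane attack complex, fell 1.53-fold in wild-type cells (-0.61 ± 0.11), and by 0.36 after repeated quantile normalization. None of the 6 measured terminal components passed in Tpl2-deficient cells. Of the 3 that passed in wild-type cells, C6 and C9 rose with both levels under the array median (the C6 call was lost without unstimulated wild-type replicate 2, with 0.37 against 0.56). C8g fell (-0.55, but -0.37 without LPS-treated wild-type replicate 1), and its level of 6.43 with LPS was under the array median. Hc, which encodes C5, was under it in every group.

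Of 11 measured complement receptors, 0 rose and 8 fell with LPS in Tpl2-deficient cells, where 16% of all genes were higher and 25.8% lower. In wild-type cells 2 rose and 6 fell, where 21.3% of all genes were higher and 30.9% lower. The receptors had medians of -0.55 and -0.53, and the list itself was not tested. Cd93, once described as a C1q receptor, fell 3.32-fold in Tpl2-deficient and 3.25-fold in wild-type cells (-1.73 ± 0.12 and -1.70 ± 0.12), and by less on the mean of its probe sets (-0.85 and -0.86). Lrp1, an endocytic receptor that binds calreticulin, fell 2.89-fold and 3.22-fold (-1.53 and -1.69). On the mean of its probe sets the change in Tpl2-deficient cells was -3.24, whereas in wild-type cells all alternatives gave -1.98 to -1.66. How the Lrp1 falls of the genotypes compare therefore depends on the probe sets taken. C1qbp, a mitochondrial protein named for C1q binding, fell 2.12-fold and 2.41-fold. Itgb2, the beta chain of complement receptors 3 and 4, fell 1.85-fold and 1.44-fold.

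Between the genotypes with LPS, Tpl2-deficient cells had 3 of the 41 genes higher and 5 lower, against 8.01% higher and 5.73% lower over all genes. The higher genes were Colec12, Serping1 and Cr1l (0.36 ± 0.10, adjusted p = 0.0353), of which the Cr1l call was lost in 11 of 18 alternatives. All 5 lower genes are receptors. C5ar1, the receptor of the chemoattractant C5a, measured 10.84 and 10.85 in Tpl2-deficient cells, against 12.04 and 11.79 in wild-type cells, and was 2.11-fold lower (-1.08 ± 0.12, adjusted p = 9.33e-05). Unstimulated, it measured 10.52 and 10.73 in Tpl2-deficient cells, against 11.23 and 11.16 in wild-type cells. That difference of -0.56 ± 0.12 did not pass (adjusted p = 0.0753). The LPS responses of C5ar1 differed by -0.51 ± 0.17, which did not pass either (adjusted p = 0.0857). C3ar1, the receptor of C3a, measured 12.90 and 12.97, against 13.65 and 13.71 in wild-type cells, and was 1.67-fold lower (-0.74 ± 0.10, adjusted p = 0.000337). C3ar1 fell with LPS in Tpl2-deficient cells (-0.52 ± 0.10, adjusted p = 0.000948) and was 0.26 ± 0.10 higher with LPS in wild-type cells (adjusted p = 0.0385). That wild-type rise was lost in 10 of 18 alternatives, and in another, the mean of its probe sets, the sign turned (-0.068). Itgam was 1.63-fold, Itgax 1.47-fold and Itgb2 1.35-fold lower, and the last pair of calls was lost without either LPS-treated wild-type array or LPS-treated Tpl2-deficient replicate 1 (-0.33 for Itgax and -0.31 for Itgb2 without it). With array weights the Itgax and Itgb2 calls were lost too (adjusted p = 0.081 and 0.057, limma). Unstimulated, the genotype differences of Itgam (-0.34 ± 0.11), Itgax (-0.46 ± 0.15) and Itgb2 (-0.07 ± 0.11) did not pass (adjusted p = 0.224, 0.236 and 0.808, limma).

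Colec12, a scavenger collectin that can start the alternative pathway in human studies, was the complement gene with the largest genotype difference. It measured 9.25 and 8.97 in Tpl2-deficient cells with LPS, against 7.61 and 7.37 in wild-type cells with LPS. Unstimulated, it measured 9.54 and 9.87 in Tpl2-deficient cells, against 8.61 and 8.44 in wild-type cells. It was 3.08-fold higher with LPS (1.62 ± 0.15, adjusted p = 2.35e-05) and 2.26-fold higher at rest (1.18 ± 0.15, adjusted p = 0.00533). The call at rest was lost without unstimulated wild-type replicate 2 (1.09, adjusted p = 0.0841) or unstimulated Tpl2-deficient replicate 2 (1.01, adjusted p = 0.0542), with values near that on all arrays. Colec12 and the targeted Map3k8 both lie on chromosome 18, so Tpl2 loss and the chromosome carried with the targeted allele cannot be told apart here. At rest, where 0.154% of all genes were higher and 0.346% lower, the only other of the 41 genes past the test was Cd59a, 1.55-fold lower (-0.64 ± 0.11, adjusted p = 0.0288), a call lost without any 1 of the wild-type or unstimulated Tpl2-deficient arrays, with values of -0.74 to -0.53.

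**Figure D4:**
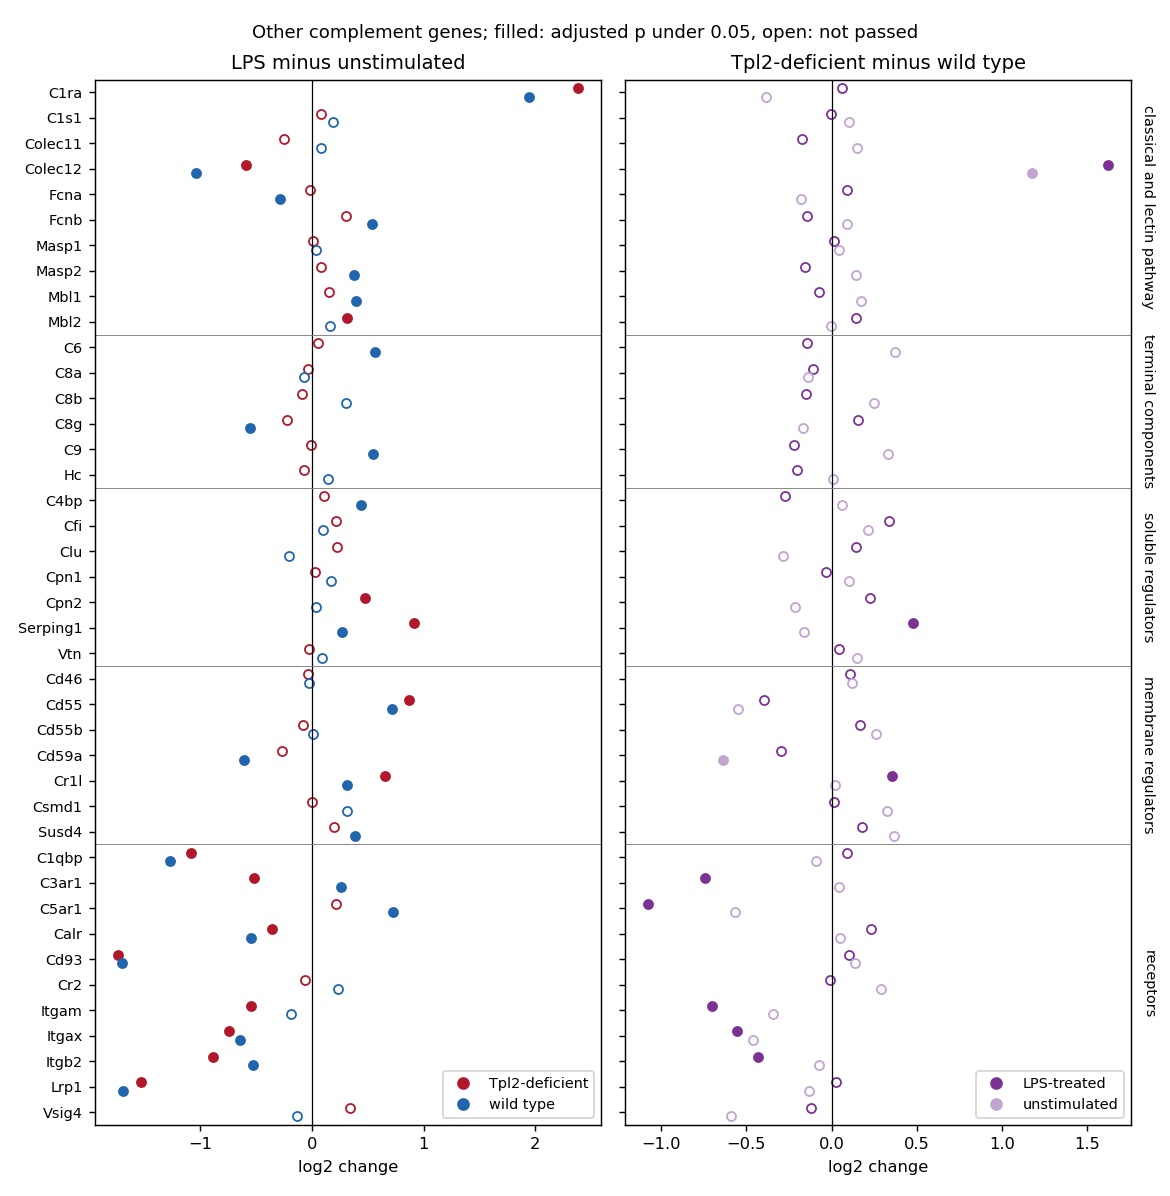
Log2 change of the 41 other measured complement genes by class, LPS minus unstimulated in Tpl2-deficient and wild-type cells (left) and Tpl2-deficient minus wild type with LPS and unstimulated (right), with filled points past an adjusted p of 0.05 (limma). C1ra stands out to the right at left, most receptors lie under 0 there, and at right Colec12 is highest and C5ar1 lowest.

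Of 19 signals and factors that the literature links to these genes 16 were measured. With LPS 11 rose and 2 fell in Tpl2-deficient cells, against 16% and 25.8% of all genes, and 14 rose and 1 fell in wild-type cells, against 21.3% and 30.9%. Between the genotypes with LPS, Tpl2-deficient cells had 2 of them higher and 7 lower, against 8.01% and 5.73% of all genes. The list was chosen with earlier results of these data known, so these counts are no result about the regulators. Ifnb1, which encodes interferon beta, was 5.95-fold higher and the interferon-responsive factor Irf1 1.66-fold higher, whereas Il1b was 6.78-fold lower and Il10 6.63-fold lower (adjusted p of 1.29e-06, 0.000874, 8.69e-08 and 5.28e-08). These values stand beside a Cfb difference of 0.40 and a C1ra difference of 0.059 between the same arrays, neither past the test, and no link between them was tested.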

How the data were processed

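RNA of 8 samples was labelled with biotin and hybridised to Affymetrix mouse arrays. The deposited values are log2 intensities of 45101 probe sets; per the submitters' processing notes they were made with GCOS and RMA, whose versions and probe set definitions are not recorded there. Values lie between 2.67 and 15.33. No further normalization or low-value filter was applied. Probe sets with exactly 1 symbol in the platform annotation (34945, controls set aside; 932 list several symbols) gave 18193 genes.

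The test was limma's moderated one (version 3.58.1, under R 4.3.3; lmFit, eBayes, two-sided, 4 residual and 6.87 prior degrees of freedom), a mean per group, 5 comparisons and Benjamini-Hochberg adjustment over all genes. Members, lists and naming rules were chosen with earlier results of these data known. The rule for named genes takes all members, list genes past the test (up to 4 in each direction per comparison, 2 for regulators), a few fixed receptors and components, and the 2 genes most like a member. Marker genes and further list genes named beside a result were chosen after their values were seen. Of the fixed components, C4b and Cfd were not analysed here. Promoters and neighbouring genes come from RefSeq tables of GRCm38.p6.

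As alternatives, probe sets were averaged per gene or those ending in _x_at and _s_at removed; values were quantile normalized again or centred on array medians or 9 spike-in probe sets; and the fit was run on brighter genes, with a variance trend, with array weights, on only the 4 arrays compared, with the replicate number as a block, and without each array in turn. Each probe set alone and a crossed block were added after seeing the data.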

Additional observations from a re-analysis of the deposited data

Results flagged for a closer look

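The LPS responses of the genotypes (Tpl2-deficient minus wild type, a test of the difference itself in limma) differed for these results. The second Cfp probe set gave -1.04 ± 0.17 (adjusted p = 0.00443), and stayed past the threshold in 14 of 14 alternatives run on it (-1.20 to -0.88), while the probe set used gave 0.06. C3ar1 gave -0.78 ± 0.14 (adjusted p = 0.00481; 17 of 17 alternatives) and Serping1 0.64 ± 0.15 (adjusted p = 0.0213; 9 of 16). Among regulators the 2 largest in each direction were Ifnb1 at 2.49 ± 0.22 and Irf1 at 0.64 ± 0.15 (not past the threshold in 7 of 17 alternatives), and Il10 at -2.82 ± 0.14 and Il1b at -2.66 ± 0.16. With 2 arrays a group, single outlying arrays were not tested.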

How the results depend on the processing

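The LPS rises of Cfb and falls of Cfp kept their direction and passed in every alternative run, Cfb at 4.62 to 4.99 in Tpl2-deficient and 4.43 to 4.80 in wild-type cells. The number of members past the test with LPS was 2 in Tpl2-deficient cells (4 with spike-in centring; 2 to 3 leaving out 1 array) and 4 in wild-type cells (2 to 4 leaving out 1 array, 2 without unstimulated wild-type replicate 2 or LPS-treated wild-type replicate 1; 4 to 5 in the others, which gained C2 with the mean of all probe sets or without _x_at and _s_at, and C1qb with the mean-variance trend). Between LPS-treated genotypes it was 0, but 1 with the mean of all probe sets (Cfp), among genes above the median level (Cfb), with the mean-variance trend (C1qa), with the replicate block (Cfb), and 0 to 1 leaving out 1 array (Cfb). For the difference of responses it was 0, but 1 with the mean of all probe sets (Cfp), and at rest it was 0 in each alternative. C1qc in Tpl2-deficient cells passed in 6 of 19 alternatives, with -0.49 under spike-in centring. The replicate block moved no other count of members; same-numbered arrays share only a number, with deviation correlations of -0.12 to 0.10. The crossed block, tried because of the lowest of these, left 2 members past the test.

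Signs turned, the cause not tested, for small values. With LPS against rest in Tpl2-deficient cells C2 gave -0.23 with spike-in centring and -0.24 to 0.26 leaving out 1 array. Between LPS-treated genotypes C2 gave -0.10 (mean of probe sets), -0.033 (without _x_at and _s_at, and on the probe set that this leaves), -0.28 (the other _x_at probe set), -0.0024 (quantile) and -0.25 to 0.26 leaving out 1 array. At rest C1qb gave 0.067 (mean of probe sets), 0.10 (spike-ins), 0.11 and 0.11 (its other probe sets), C1qa -0.017 (array medians) and -0.024 to 0.062 leaving out 1 array, Cfb -0.017 to 0.34 leaving out 1 array, and Cfp 0.070 (second probe set). For the difference of responses C1qb gave -0.017 (mean), -0.034 (spike-ins), -0.058 and -0.049 (other probe sets), C1qc -0.00021 (quantile) and -0.034 (spike-ins), Cfp -0.49 (mean), -0.029 (spike-ins) and -1.04 (second probe set), and C2 -0.43 to 0.072 leaving out 1 array. With LPS in wild-type cells the mean of probe sets gave C3ar1 -0.068 and Cr1l -0.22.

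Over all genes, calls with LPS between the genotypes numbered 2500 (1580 with array weights, 1356 to 3240 leaving out 1 array), at rest 91 (48 with the 4 arrays only, 531 with array weights, 23 to 111), and for the difference of responses 1563 (983 with spike-ins, 756 to 2565). Of the other complement genes, those counts were 8 (5 with array weights, 4 to 10), 2 (1 to 5, and 0 to 2) and 2 (1 to 5, and 1 to 7), and with LPS in wild-type cells 23 (13 among genes above the median level). The fit among genes above the median level leaves out the dimmer list genes, so its 13 is a count from fewer genes. Signals under the array median were not shown to be above background.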
